A study of Mus musculus with 7 samples.

Results

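The set described here holds the enzymes that add and remove methyl groups on histones and those that remove acetyl groups, in the kidney of control and diabetic mice. Members were the protein-coding genes whose symbol begins with Kdm, Kmt, Setd, Hdac or Sirt followed by a digit, together with Ezh1 and Ezh2, and with the Y-linked Kdm5d left out. The rule found 53 of the 17537 listed genes: 18 writers (Ezh, Kmt and Setd), 17 demethylases (Kdm), 11 histone deacetylases (HDACs) and 7 sirtuins. They lie on 18 chromosomes, and 4 of them (Kdm6a, Kdm5c, Hdac6 and Hdac8) lie on the X chromosome.

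Writers transfer methyl groups to lysines of histone tails, and demethylases take them off again. Methylation of H3K4 and H3K36 accompanies active genes, whereas methylation of H3K27 and H3K9 accompanies silenced ones, and Ezh1 and Ezh2 are the alternative catalytic subunits of the Polycomb complex PRC2 that writes the H3K27 mark. HDACs remove acetyl groups with the help of zinc, whereas sirtuins consume NAD and are found in the nucleus, the cytosol and the mitochondria. Some enzymes with these names act mainly on other proteins, such as Setd3 on actin and Hdac6 on tubulin.

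The kidneys of 7 C57BL/6 mice gave 1 library each, made from polyA RNA and keeping the strand. Libraries C 2, C 8 and C 9 came from nondiabetic controls given no streptozotocin, DM-22 1 and DM-22 2 from mice left diabetic, and DM+SGLT2i 1 and DM+SGLT2i 2 from diabetic mice on the SGLT2 inhibitor dapagliflozin. Diabetes was induced in both diabetic groups with streptozotocin, a toxin of the pancreatic beta cell, at 60 mg/kg on 5 days, and DM+SGLT2i mice then drank 25 mg/kg dapagliflozin for the last 6 of 22 weeks. The labels give male mice of 8 to 10 weeks, whereas the methods of the study give both sexes and 8 weeks at the start. None of these libraries came from nondiabetic mice on dapagliflozin, streptozotocin acts as a toxin besides causing hyperglycemia, and bulk tissue mixes all kidney cells.

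Promoter windows of 4 members are shown: Kdm6a and Sirt1 carry the E-box bound by the clock factors, and Kmt2a and Kdm7a were among the genes low in C 2 and DM-22. Each window of 300 bases runs from 250 bases before to 50 bases after the transcription start in RefSeq (GRCm38.p6), 5′ to 3′ on the strand of the gene. Capitals mark the GC box GGGCGG and the E-box CACGTG on either strand, overlapping matches included. The windows are Kdm6a at chrX:18162325-18162624 (plus strand), Sirt1 at chr10:63338986-63339285 (minus strand), Kmt2a at chr9:44881240-44881539 (minus strand) and Kdm7a at chr6:39206724-39207023 (minus strand).
Kdm6a: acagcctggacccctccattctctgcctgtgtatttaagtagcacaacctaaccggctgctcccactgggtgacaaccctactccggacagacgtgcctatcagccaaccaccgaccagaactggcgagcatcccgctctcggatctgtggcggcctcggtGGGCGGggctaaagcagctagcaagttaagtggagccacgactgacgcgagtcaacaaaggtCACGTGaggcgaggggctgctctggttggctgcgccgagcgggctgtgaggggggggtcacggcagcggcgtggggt
Sirt1: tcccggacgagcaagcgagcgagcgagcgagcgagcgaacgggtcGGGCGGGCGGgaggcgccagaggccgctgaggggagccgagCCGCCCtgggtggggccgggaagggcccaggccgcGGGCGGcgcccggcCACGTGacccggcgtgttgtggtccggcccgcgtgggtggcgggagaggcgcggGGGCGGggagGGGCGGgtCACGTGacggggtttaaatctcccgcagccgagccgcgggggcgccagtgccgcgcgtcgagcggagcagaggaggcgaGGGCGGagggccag
Kmt2a: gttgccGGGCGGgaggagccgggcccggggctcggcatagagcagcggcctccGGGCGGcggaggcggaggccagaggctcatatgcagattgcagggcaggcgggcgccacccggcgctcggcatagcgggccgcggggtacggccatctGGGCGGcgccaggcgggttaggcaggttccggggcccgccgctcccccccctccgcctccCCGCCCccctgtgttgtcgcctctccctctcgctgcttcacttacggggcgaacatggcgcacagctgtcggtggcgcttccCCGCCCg
Kdm7a: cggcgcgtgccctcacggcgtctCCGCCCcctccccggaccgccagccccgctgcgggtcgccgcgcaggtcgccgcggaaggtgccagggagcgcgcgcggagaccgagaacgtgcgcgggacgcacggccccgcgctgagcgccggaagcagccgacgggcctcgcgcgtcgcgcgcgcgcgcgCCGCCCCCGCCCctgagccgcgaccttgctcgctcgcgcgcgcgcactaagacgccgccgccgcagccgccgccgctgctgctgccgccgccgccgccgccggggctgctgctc
A window was at hand for 42 members, with 58 windows in all. The GC box, bound by Sp factors, was in 62.1% of these windows against 35.7% of all 32851 windows of the same length, and the median number of CG dinucleotides was 22.5 against 7. The E-box was in 6.9% of the member windows against 7.15% of all windows, and the members with one were Hdac5, Kdm4c, Kdm6a and Sirt1. These matches are descriptions of the sequence, and binding was not measured.

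Levels are given as CPM, reads scaled to a common library total and normalized between libraries, and are compared between genes only per kilobase (kb) of exon. Nearly all members were expressed: 52 of 53 passed the filter, a level of 1 CPM or more in 2 or more libraries. The exception was Kdm4d, an H3K9 demethylase best known from testis, at 0.0925 to 0.431 CPM. Among the writers the highest mean level was that of Setd3 (26.2 CPM per kb) and the lowest that of Setd4 (0.23 CPM per kb). Ezh1, the PRC2 enzyme of resting tissue, stood at 10.1 CPM per kb, and Ezh2, the form of dividing cells, at 0.856 CPM per kb, so that Ezh1 was above Ezh2 in every library. The demethylases ranged from Kdm8 at 1.78 to Kdm5c, an X-linked H3K4 demethylase, at 10.2 CPM per kb, once Kdm4d is set aside. Hdac1 led the HDACs at 16.9 CPM per kb and Hdac9 stood last at 0.0499, and Sirt2 led the sirtuins at 17.4 with Sirt6 last at 2.36. The ranges of neighbours overlapped for most of the list.

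**Figure D1:**
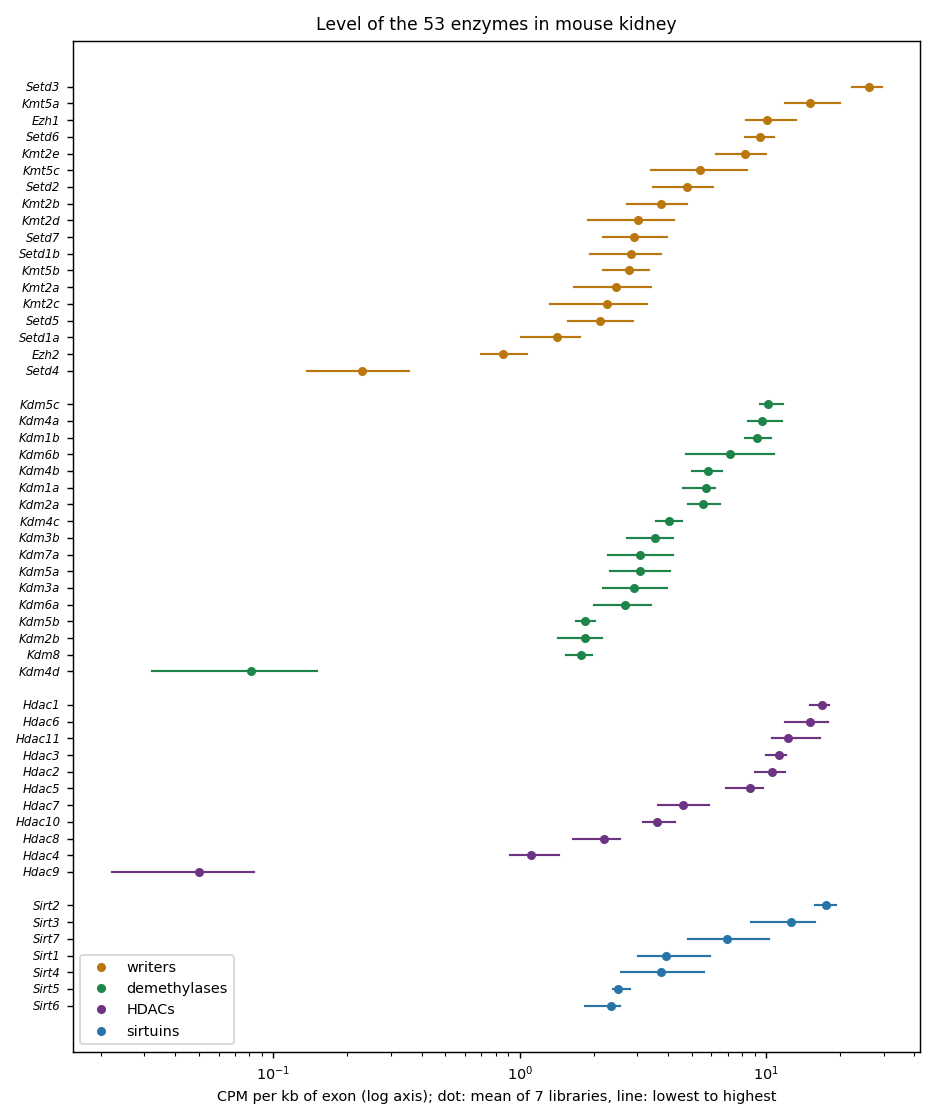
Mean level of each of the 53 enzymes over 7 libraries, in CPM per kb of exon on a log axis, with lines from the lowest to the highest library and colours for the 4 classes. Setd3, Sirt2 and Hdac1 lead, and Kdm4d and Hdac9 lie far below the rest.

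Library C 2 stood apart from the other controls. It differed from C 8 and C 9 by a median of 0.480 and 0.429 on the log2 scale over the members, whereas C 8 and C 9 differed by 0.0802. Over all genes tested the same distances were 0.408, 0.391 and 0.110, and C 2 was nearest to DM+SGLT2i 2, at 0.161 over the members. C 2 lay below both other controls in 39 of 53 members and above both in 12, against 46.4% and 44.2% of all genes tested. By class, C 2 was lowest of the 3 controls in 15 of 18 writers, 12 of 17 demethylases, 6 of 11 HDACs and 6 of 7 sirtuins. C 2 also held 72.7 CPM of Cdkn1a, the gene of the cell-cycle inhibitor p21, against 4.63 and 5.36 in C 8 and C 9 and 52.6 to 123 in the 4 diabetic libraries. The other tubular injury genes read, Havcr1 and Lcn2, were higher in C 2 than in any other library, at 29.5 and 74.9 CPM. Their highest values in the diabetic libraries were 16.9 and 52.7, and in C 8 and C 9 1.98 and 0.983. The summed proximal tubule markers were 6775 CPM in C 2, against 31185 and 28525 in C 8 and C 9. They were 14454 to 31777 in the 4 diabetic libraries, so that C 2 was below these too. Each comparison is therefore given with all 3 controls and again with C 8 and C 9 only, and the second set was chosen with these values known.

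**Figure D2:**
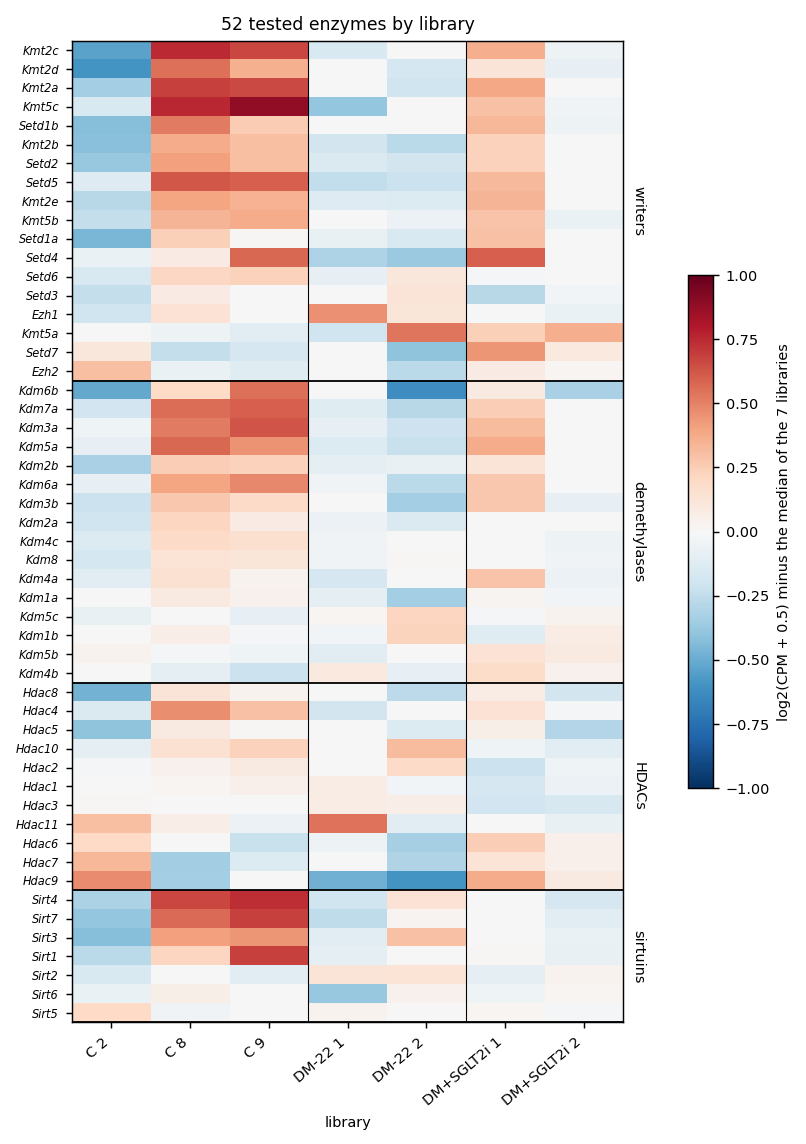
Log2(CPM + 0.5) of the 52 tested enzymes minus each gene's median of the 7 libraries, in colour, by library and class, ordered within a class by C 2 minus the mean of C 8 and C 9. C 8 and C 9 are red for most writers and for Sirt1, Sirt3, Sirt4 and Sirt7, and C 2 is blue for most of these.

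The first comparison asks what differs between diabetic and control kidney. With all 3 controls, 0 of 52 members passed an adjusted p of 0.05 in DM-22 against C (limma, Benjamini-Hochberg over 13976 genes), against 0.0% of all genes. 0 members had an unadjusted p under 0.05, against 4.47% of all genes, and limma-voom on the recovered reads also gave 0 at both thresholds. The smallest adjusted p of a member was 0.804. The class medians of the log2 fold change were -0.19 for writers, -0.13 for demethylases, 0.00 for HDACs and -0.17 for sirtuins, beside 0.00 over all genes tested, and 15 of 18 writers, 13 of 16 demethylases, 5 of 11 HDACs and 6 of 7 sirtuins lay below 0. 3 members were higher and 6 lower with no overlap of the libraries, against 10.8% and 9.29% of all genes. The higher ones were Kdm5c, Hdac3 and Sirt2, and the lower ones Setd4, Setd5, Kdm1a, Kdm3a, Kdm5a and Hdac9, of which Setd4 and Hdac9 were below 1 CPM in both DM-22 libraries. These counts moved when 1 library was left out. Without C 2, 32 of 51 members were lower without overlap and 4 higher, beside 4113 and 4143 of 13841 genes. Both counts also rose without DM-22 1 or DM-22 2, which leaves 1 library in that group. Without the normalization between libraries (TMM factors), with all 3 controls, 1 member was higher and 11 lower without overlap. In that limma fit 4 members were lower at an unadjusted p under 0.05, and 0 passed the adjusted threshold. The median of all genes moved there from 0.00 to -0.08, and the same shares of all genes were not counted.

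Against C 8 and C 9 only, 19 of 51 members were lower in DM-22 at an unadjusted p under 0.05 and 0 were higher, against 15.0% lower and 10.5% higher of 13841 genes. None passed the adjusted threshold in limma, against 0.0144% of all genes, the smallest adjusted p being 0.082, and limma-voom gave 19 lower at the unadjusted threshold. The 19 were 9 writers, 6 demethylases, 3 sirtuins and 1 HDAC. The class medians were -0.44, -0.27 and -0.34 for writers, demethylases and sirtuins and -0.03 for HDACs, beside 0.00 over all genes. C 2 lay below C 8 and C 9 in all 19, and at or below the higher DM-22 library in 16. The 19 were picked with C 8 and C 9 high against DM-22, which favours a lower C 2. These counts were not made over all genes, so they are not read as particular to the enzymes. Hdac9 fell under the expression filter once C 2 was left out.

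**Figure D3:**
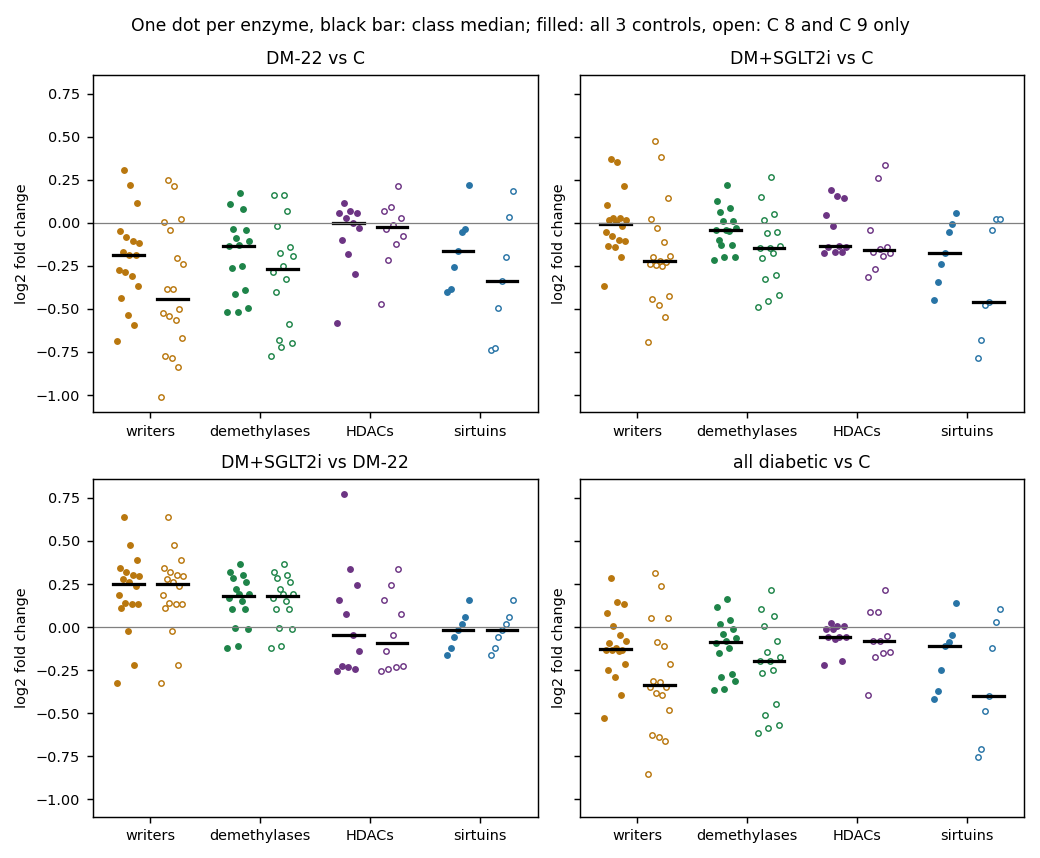
Log2 fold change of each enzyme by class in the 4 comparisons, with the class median as a black bar, filled dots for all 3 controls and open dots for C 8 and C 9 only. The writers' median in DM-22 against C is -0.19 with all controls and -0.44 without C 2, whereas the HDAC medians are 0.00 and -0.03.

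The Kmt2 family, of which Kmt2a, Kmt2b, Kmt2c and Kmt2d but not Kmt2e were listed as H3K4 writers, was the group with the widest gap between controls. Kmt2a (MLL1), which keeps developmental genes active, had 27.8, 56.9 and 56.1 CPM in C 2, C 8 and C 9, 35.2 and 30.6 in DM-22 and 46.3 and 35.2 in DM+SGLT2i. C 2 was the lowest of the 7 libraries, and the diabetic libraries lay between it and the other controls. The log2 fold change of Kmt2a in DM-22 was -0.44 (95% interval -1.23 to 0.36, adjusted p = 0.804) with all controls and -0.77 (-1.18 to -0.37, adjusted p = 0.0931) against C 8 and C 9. Kmt2c, which writes monomethyl marks at enhancers, had 27.1, 66.5 and 62.9 CPM in C, 35.5 and 39.5 in DM-22 and 51.0 and 38.2 in DM+SGLT2i, in the same order of groups. All 5 Kmt2 genes lay below 0 in DM-22 with either set of controls, with a median of -0.31 and of -0.56.

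Setd5 had the smallest p of any writer. Its 31.3, 52.8 and 51.9 CPM in C compare with 28.7 and 29.5 in DM-22 and 43.0 and 34.2 in DM+SGLT2i, so that both DM-22 libraries were below every control and below both treated libraries. The log2 fold change in DM-22 was -0.59 (95% interval -1.20 to 0.02, adjusted p = 0.804), and -0.84 (-1.19 to -0.49, adjusted p = 0.082) against C 8 and C 9. Kmt5c, which places the trimethyl mark on H4K20 in heterochromatin, had 16.1, 30.7 and 33.6 CPM in C, 13.6 and 18 in DM-22 and 22.1 and 17.5 in DM+SGLT2i. C 2 lay among the diabetic libraries for this gene, and it stood at -0.69 on the log2 scale in DM-22 with all controls (adjusted p = 0.804) and at -1.01 without C 2 (adjusted p = 0.082).

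Kmt5a, the H4K20 monomethyltransferase, and Setd7, an H3K4 monomethyltransferase that also acts on many other proteins, were the writers with the smallest p upward in DM+SGLT2i against C. Setd7 had 34.0, 26.4 and 27.8 CPM in C, 31.3 and 23.5 in DM-22 and 42.7 and 33.6 in DM+SGLT2i. Its treated libraries were above C 8 and C 9 but overlapped C 2. Kmt5a had 72.6, 70.0 and 67.5 CPM in C, 63.1 and 105 in DM-22 and 85.8 and 93.6 in DM+SGLT2i, so that both treated libraries were above all controls while the DM-22 libraries lay on either side of them.

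Neither PRC2 enzyme passed the test. Ezh1 had 61.9, 78.9 and 71.2 CPM in C, 98.0 and 77.3 in DM-22 and 70.8 and 67.9 in DM+SGLT2i, which gave 0.31 on the log2 scale in DM-22 (95% interval -0.09 to 0.70, adjusted p = 0.804). Ezh2 had 7.15, 5.41 and 5.21 CPM in C, 5.71 and 4.65 in DM-22 and 6.09 and 5.78 in DM+SGLT2i, with -0.17 in DM-22 (-0.67 to 0.33, adjusted p = 0.856). DM-22 and C overlapped for both genes, and C 2 was the highest library for Ezh2.

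The opposing demethylases of H3K27 are Kdm6a (UTX), which also belongs to the Kmt2c and Kmt2d complexes, and Kdm6b (JMJD3), an inducible enzyme. Kdm6a had 19.2, 26.9 and 28.6 CPM in C, 19.9 and 16.8 in DM-22 and 24.7 and 20.3 in DM+SGLT2i. C 2 lay within the DM-22 range, and without it both DM-22 libraries were below the controls. The log2 fold change of Kdm6a in DM-22 was -0.41 (95% interval -0.93 to 0.10, adjusted p = 0.804), and -0.59 (-0.97 to -0.21, adjusted p = 0.106) against C 8 and C 9. The exact two-sided permutation test over libraries gave p = 0.3 with all controls, where 0.1 is the smallest p that 2 against 3 libraries allow, and 0.333 without C 2, the smallest that 2 against 2 allow. Kdm6a has a Y-linked paralog, Uty, and how reads shared by both were counted is not given in the sources used here.

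Kdm6b had 35.6, 58.5 and 74.6 CPM in C, 50.9 and 33.0 in DM-22 and 54.1 and 40.6 in DM+SGLT2i, the widest spread of any tested demethylase (2.26-fold). Its groups overlapped, with a log2 fold change in DM-22 of -0.39 (95% interval -1.22 to 0.44, adjusted p = 0.815). C 9, the highest library, also held 2081 CPM of 4 summed immediate early genes against 41.6 to 132 in the other 6, and the part of this in the Kdm6b value was not tested.

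Among the other demethylases, Kdm7a, which acts on H3K9 and H3K27, had 24.2, 41.2 and 42.2 CPM in C, 25.5 and 22.9 in DM-22 and 32.9 and 27.8 in DM+SGLT2i. Kdm3a, an H3K9 demethylase induced by hypoxia, had 20.3, 30.3 and 32.6 CPM in C, 19.7 and 18 in DM-22 and 26.1 and 20.9 in DM+SGLT2i. Kdm5a, an H3K4 demethylase, had 36.4, 57.9 and 53 CPM in C, 35 and 33 in DM-22 and 50.1 and 38.6 in DM+SGLT2i. For Kdm3a and Kdm5a both DM-22 libraries were below every control, by a small margin to C 2, whereas for Kdm7a C 2 lay between them. With all controls their log2 fold changes in DM-22 were -0.52, -0.52 and -0.50 for Kdm7a, Kdm3a and Kdm5a, and against C 8 and C 9 -0.77, -0.72 and -0.70 (adjusted p = 0.082, 0.0931 and 0.0944, limma). Kdm5c lay the other way, at 67.9, 71.4 and 67.4 CPM in C, 72.4 and 83.0 in DM-22 and 70.4 and 73.3 in DM+SGLT2i, which gave 0.17 on the log2 scale in DM-22 (-0.12 to 0.46).

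**Figure D4:**
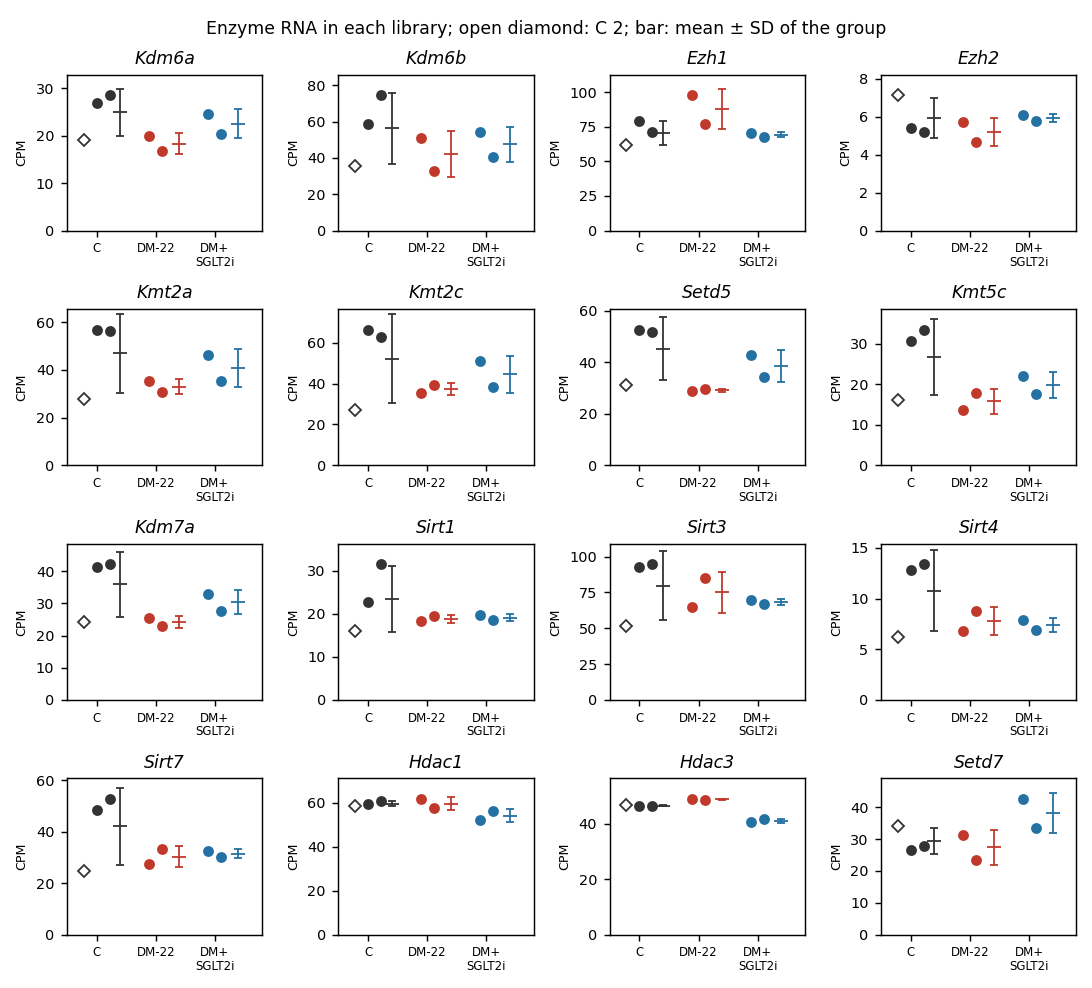
CPM of 16 enzymes in each library, with the open diamond for C 2 and the bar for the mean and SD of each group. Hdac1 and Hdac3 stay within a narrow band, whereas for Kmt2c, Kmt5c and Sirt7 C 8 and C 9 lie above the diabetic libraries and C 2 lies among or below them.

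Hdac1, Hdac2 and Hdac3, nuclear deacetylases of class I, varied by 1.19-, 1.33- and 1.21-fold over the 7 libraries. Hdac1 had 58.6, 59.5 and 60.8 CPM in C, 61.8 and 57.5 in DM-22 and 52.2 and 56.2 in DM+SGLT2i. Hdac3, the deacetylase of the NCoR and SMRT corepressors, had 46.9, 46.5 and 46.4 CPM in C, 49.0 and 48.6 in DM-22 and 40.6 and 41.6 in DM+SGLT2i. Both treated libraries were below every other library for Hdac1 and Hdac3, and the log2 fold change of Hdac3 in DM+SGLT2i against DM-22 was -0.24 (95% interval -0.53 to 0.05, adjusted p = 0.881). C 2 lay with the other controls for Hdac1 and Hdac3. The other class I member, the X-linked Hdac8, varied by 1.55-fold, with 7.99 CPM in C 2, the lowest of the 7 libraries, against 12.4 and 11.6 in C 8 and C 9. Among class IIa, which moves between nucleus and cytoplasm, Hdac4 had 14.8, 22.9 and 20.2 CPM in C and 14.4 and 16.4 in DM-22, and it was the only HDAC at an unadjusted p under 0.05 against C 8 and C 9 (log2 fold change -0.47, adjusted p = 0.133). Hdac7 was highest in C 2, at 39.6 CPM against 24.6 and 28.6 in C 8 and C 9. Hdac6 had 100, 87.5 and 74.9 CPM in C, 84.4 and 69.5 in DM-22 and 104 and 90.6 in DM+SGLT2i, and the DM-22 libraries of Hdac11, the class IV enzyme, lay at both ends of its range, at 63.9 and 40.6. The DM-22 libraries also differed from each other in cell markers, with 12513 and 2939 CPM of thick ascending limb markers, 17669 and 31777 of proximal tubule markers and 236 and 618 of podocyte markers in DM-22 1 and DM-22 2, and the part of this in the DM-22 values was not tested. Hdac9, at 0.324 to 1.23 CPM, had the widest spread of all tested members (3.79-fold).

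The sirtuins differed among themselves. Sirt7, a nucleolar deacetylase, had 24.9, 48.5 and 52.8 CPM in C, 27.3 and 33.3 in DM-22 and 32.7 and 30.2 in DM+SGLT2i, and the mitochondrial Sirt4 had 6.19, 12.8 and 13.4 in C, 6.79 and 8.74 in DM-22 and 7.85 and 6.94 in DM+SGLT2i. In both genes C 2 was the lowest of 7 libraries and C 8 and C 9 the highest. Against C 8 and C 9, the log2 fold changes of Sirt7 were -0.74 in DM-22 and -0.68 in DM+SGLT2i, and those of Sirt4 were -0.73 and -0.79 (adjusted p of 0.0849, 0.118, 0.0989 and 0.133). With all 3 controls Sirt7 was at -0.40 and -0.34 and Sirt4 at -0.39 and -0.45, with adjusted p of 0.807 or above. Sirt7 shares exons with Mafg on the same strand, so that reads there may belong to either gene.

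Sirt1, the nuclear NAD-dependent deacetylase, had 16.1, 22.6 and 31.5 CPM in C, 18.2 and 19.4 in DM-22 and 19.6 and 18.5 in DM+SGLT2i. The 4 diabetic libraries kept within a narrow range while the controls spread on both sides of it, and the log2 fold change in DM-22 was -0.26 (95% interval -0.90 to 0.39, adjusted p = 0.83). Arntl (BMAL1), a clock factor of the E-box, stood at 1.21 to 1.77 CPM in the controls and 5.07 to 19.4 in the diabetic libraries, C 2 included with the controls, and its part in the Sirt1 level was not tested. Of the other clock genes read, Dbp went the other way, at 168 to 225 CPM in the controls and 37.6 to 106 in the diabetic libraries. Per1 and Nr1d1 overlapped between controls and diabetic libraries. Sirt3, the main mitochondrial deacetylase, had 51.7, 93.1 and 94.7 CPM in C, 64.7 and 85.3 in DM-22 and 69.7 and 66.6 in DM+SGLT2i. Its exons overlap Psmd13 and Ric8a on the opposite strand. Sirt2, Sirt5 and Sirt6 varied little, with fold ranges over the libraries of 1.22, 1.18 and 1.39.

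The second comparison asks what remained after glucose lowering, and it shares the controls with the first. In DM+SGLT2i against all 3 controls, 0 of 52 members passed the adjusted threshold (0.0% of all genes) or an unadjusted p under 0.05 (1.08% of all genes) in limma, and limma-voom likewise gave 0. The class medians were -0.01 for writers, -0.04 for demethylases, -0.14 for HDACs and -0.17 for sirtuins, beside -0.01 over all genes. 3 members were higher without overlap (Kmt5a, Kdm4b and Kdm5b, against 5.67% of all genes) and 3 lower (Hdac1, Hdac2 and Hdac3, against 6.59%). These counts moved when 1 library was left out. Without C 2, 7 of 51 members were higher without overlap and 31 lower, beside 3845 and 4682 of 13841 genes. Against C 8 and C 9, 11 members were lower and 1, Setd7, higher at an unadjusted p under 0.05, beside 9.23% and 8.68% of all genes, and 0 passed the adjusted threshold, against 0.123%. The 11 were Kmt2a, Kmt2c, Kmt2d, Kmt5c, Setd5, Kdm3a, Kdm7a, Sirt1, Sirt3, Sirt4 and Sirt7, and the class medians were -0.22, -0.14, -0.16 and -0.46 for writers, demethylases, HDACs and sirtuins.

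For the 4 diabetic libraries together against all 3 controls, 0 of 52 members passed the adjusted threshold (0.0% of all genes) or an unadjusted p under 0.05 (2.04%), in limma and in limma-voom. Without overlap there were 0 in either direction (1.31% higher and 1.38% lower of all genes). Once C 2 was left out, 25 of 51 members were lower without overlap and 1 higher, beside 2905 and 2069 of 13841 genes. Against C 8 and C 9, 19 of 51 were lower and 0 higher at an unadjusted p under 0.05, beside 14.6% and 10.4% of all genes, 0 passed the adjusted threshold, against 0.202%, and the smallest adjusted p was 0.0697, of Sirt7.

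The third comparison, DM+SGLT2i against DM-22, asks what dapagliflozin changed in diabetic mice and uses no control library in its means. 0 of 52 members passed the adjusted threshold (0.0% of all genes) or an unadjusted p under 0.05 (3.91%) in limma, and limma-voom also gave 0. The class medians were 0.25 for writers, 0.18 for demethylases, -0.05 for HDACs and -0.01 for sirtuins, beside 0.00 over all genes. 20 members were higher in both treated libraries than in both untreated ones and 7 were lower, against 21.4% and 20% of all genes. 15 of 18 writers and 12 of 16 demethylases lay above 0. Without the TMM factors the median of all genes moved from 0.00 to 0.11, the split of the members without overlap from 20 higher and 7 lower to 22 and 2, and the HDAC median to 0.06, still below that of all genes. DM+SGLT2i 1 weighed on this more than DM+SGLT2i 2: the writers' median was 0.12 without the first and 0.40 without the second.

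Setd7, Setd5 and Kmt2b were the 3 members at an unadjusted p under 0.05 when the spread was estimated without C 2, against 6.81% of all genes that were higher, with log2 fold changes of 0.47, 0.39 and 0.34 (adjusted p = 0.464 for each, limma). Kmt2b, an H3K4 writer, had 30.8 and 29.2 CPM in DM-22 and 41.4 and 35.2 in DM+SGLT2i. All 7 H3K4 writers lay above 0, with a median of 0.26, whereas the HDAC class I median was -0.18. DM+SGLT2i 1 also held 122 CPM of the adipose markers Adipoq and Plin1 and 85.2 CPM of 3 urothelial markers, against at most 6.48 and 30.7 in any other library, and the part of this in the values was not tested.

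Members differ in exon length, and the log2 fold changes went with it where DM-22 was compared, but hardly in DM+SGLT2i against all controls. The 17 members over 10 kb of exon, which include 4 of the Kmt2 genes, all lay below 0 in DM-22 against all controls, with a median of -0.28. Of all protein-coding genes over 10 kb, 69.4% lay below 0, with a median of -0.15. In DM+SGLT2i against DM-22, 0 of these 17 lay below 0, with a median of 0.26. Of all protein-coding genes over 10 kb, 25.0% lay below 0 there, with a median of 0.18. The 12 members under 5 kb had medians of -0.01 and -0.04 in these comparisons. Spearman's rho between length and log2 fold change across the 52 tested members was -0.41 in DM-22 against C and 0.51 in DM+SGLT2i against DM-22, and across 13312 protein-coding genes -0.28 and 0.32. In DM+SGLT2i against all controls rho was 0.14 for the members and 0.057 for the protein-coding genes, and 9 of the 17 long members lay below 0, with a median of -0.03. Against C 8 and C 9 only, rho in DM+SGLT2i was -0.18 for the members and -0.12 for the protein-coding genes. There 14 of 16 long members lay below 0, with a median of -0.25, beside 62.6% of long protein-coding genes. In DM-22 against C 8 and C 9 rho was -0.39 and -0.33. Genes share their libraries and are not independent replicates.

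**Figure D5:**
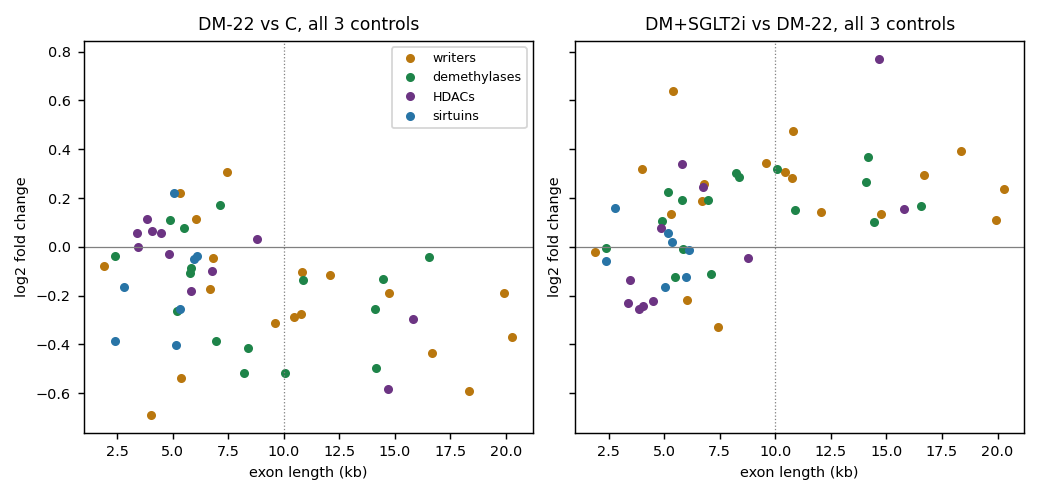
Log2 fold change of the 52 tested enzymes against exon length in kb, by class, for DM-22 against all 3 controls and for DM+SGLT2i against DM-22, with a dotted line at 10 kb. All 17 enzymes past the line are below 0 for DM-22 against C and above 0 for DM+SGLT2i against DM-22.

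Nuclear-retained RNAs went with the same libraries. Malat1 and Neat1, noncoding RNAs that stay in the nucleus, summed to 93.9 CPM in C 2, 457 and 627 in C 8 and C 9, 70.6 and 58.4 in DM-22 and 209 and 91.5 in DM+SGLT2i. C 8, C 9 and DM+SGLT2i 1 were the 3 highest libraries for this sum. They were also the 3 highest for 26 of the 52 tested members, against 14.6% of all genes tested, a tally made after the pattern was seen. By class these were 12 of 18 writers, 10 of 16 demethylases, 3 of 11 HDACs (Hdac4, Hdac5 and Hdac8) and 1 of 7 sirtuins (Sirt1). The part of these RNAs in the enzyme levels was not tested. In bulk kidney, fewer cells of a type and less RNA per cell cannot be told apart.

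The other genes of the pathway were read from a list of further writers, demethylases, PRC2 and COMPASS subunits, corepressors of HDACs, acetyltransferases and genes of NAD supply, of which 86 were tested and Smyd1, Phf19 and Nmnat2 were below the filter. With all 3 controls, 1 was higher and 3 lower in DM-22 at an unadjusted p under 0.05, near the 4.47% of all genes, and 0 passed the adjusted threshold. Suds3, a subunit of the Sin3 deacetylase complex, had 132, 142 and 143 CPM in C, 204 and 167 in DM-22 and 117 and 143 in DM+SGLT2i, which gave 0.41 on the log2 scale in DM-22 and -0.51 in DM+SGLT2i against DM-22 (adjusted p of 0.804 and 0.881). The 3 lower genes were the H3K9 methyltransferase gene Setdb2 (-0.72), the PRC2 accessory gene Mtf2 (-0.57) and the corepressor gene Tbl1xr1 (-0.39). Sap30, another Sin3 subunit, was at -0.72 in DM+SGLT2i against C (adjusted p above 0.99, limma).

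Against C 8 and C 9, 3 of the 86 were higher and 19 lower in DM-22 at an unadjusted p under 0.05, beside 10.5% and 15.0% of all genes. Nmrk1, the kinase that turns nicotinamide riboside into an NAD precursor, had 29.7, 86.9 and 80.4 CPM in C, 39.4 and 40.5 in DM-22 and 39.7 and 45.4 in DM+SGLT2i. All 4 diabetic libraries were below C 8 and C 9 and above C 2, and the log2 fold change over the 4 diabetic libraries was -1.01 without C 2 (adjusted p = 0.0479, limma), a call that 0.202% of all genes reached there. With all 3 controls 0 of the 86 passed in that comparison and 3 were lower at an unadjusted p under 0.05, beside 2.04% of all genes in either direction. Jarid2, a PRC2 cofactor, had 27.6, 56.3 and 60.1 CPM in C, 28.1 and 30 in DM-22 and 42 and 39 in DM+SGLT2i, with both treated libraries above both DM-22 libraries.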

How the data were processed

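Kidney RNA of 7 mice was compared in 3 groups taken from the sample labels. The authors deposited log2 values of CPM (counts scaled to the library total) normalized by TMM, with a constant of 2 reads on average added. Per the labels, the authors used bcl2fastq, FastQC, Trim Galore, STAR and edgeR with the build mm10 (submitters' processing notes). The counting program and its strand setting are not given in the sources used here. CPM were recovered by subtracting the floor, and reads came out whole (within 0.05) for 100% of values. Reads on listed genes were 46456125 to 56541594 per library, 1 read being 0.0180 to 0.0231 CPM. The design had assumed CPM.

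Genes reaching 1 CPM in 2 or more libraries were tested with limma 3.58.1 (R 4.3.3, trend) on log2(CPM + 0.5), the 3 groups together, with two-sided p-values adjusted by Benjamini-Hochberg at 0.05. The script was tested on simulated data with 200 changed genes and no control standing apart, which does not give its power in these data. Fold changes on this scale understate those of low genes. The class medians were described and not tested. Exon lengths came from GENCODE M21. Exons of 20 members overlap a gene on the opposite strand and those of 4 a gene on the same strand. Alternatives were other pseudocounts (0.1 and 2) and filters, no TMM factors, limma-voom, separate fits and leaving out each library, and 2 further ones without C 2 were chosen after seeing the data. Members and lists were chosen with earlier results of these data known. Named genes were 6 fixed enzymes, the smallest p in each class, direction and comparison, and the extremes of level and spread. Other genes were named from their class after their values were seen.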

Additional observations from a re-analysis of the deposited data

How the results depend on the processing

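The number of members past an adjusted p of 0.05 was 0 in all 4 comparisons under every alternative run, and limma-voom and the separate fits kept it there. Under the alternatives, 338 values answered a comparison. Of these, 324 kept their direction and side of the threshold or moved by less than the spread between replicates, 13 moved further and 1, of Kdm6a, reversed. Many could hardly change, such as class medians when the library left out was outside the comparison. The spread was 0.27 for writers, so their DM-22 median counted as kept at -0.44 without C 2. Only Kdm6a could count as reversed, and a class median that changed sign by less than the spread counted as kept. An example is the writers' median in DM+SGLT2i against C, which went from -0.0074 to 0.098 without DM+SGLT2i 2. Of 234 further counts, at an unadjusted p or without overlap, 60 moved. Without the TMM factors, the HDAC medians became -0.088 in DM-22 against C and 0.059 in DM+SGLT2i against DM-22. Without the TMM factors and C 2, chosen after seeing the data, the DM-22 medians were -0.51 for writers, -0.33 for demethylases and -0.089 for HDACs, and the sirtuin median over all diabetic libraries was -0.41. The cause of these moves was not tested.

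Leaving out 1 library at a time gave these ranges. The writers' medians ran from -0.44 to -0.13 in DM-22 against C, from -0.22 to 0.098 in DM+SGLT2i against C, from 0.12 to 0.40 in DM+SGLT2i against DM-22 and from -0.33 to -0.0062 over all diabetic libraries. Those of demethylases ran from -0.27 to -0.045, from -0.14 to 0.008, from 0.087 to 0.23 and from -0.20 to -0.006 in the same order. In the comparisons with C the lowest of these came without C 2, and the highest came without C 8 or, in DM+SGLT2i against C, without DM+SGLT2i 2. The HDAC medians ran from -0.16 to 0.059 in DM-22 against C, from -0.16 to -0.011 in DM+SGLT2i against C, from -0.11 to 0.13 in DM+SGLT2i against DM-22, and from -0.082 to -0.04 over all diabetic libraries. The sirtuin medians ran from -0.34 to -0.056 in DM-22 against C, from -0.084 to 0.075 in DM+SGLT2i against DM-22, from -0.46 to -0.025 in DM+SGLT2i against C and from -0.40 to -0.054 over all diabetic libraries, the lowest of each comparison with C without C 2. Kdm6a in DM+SGLT2i against C ran from -0.30 (without C 2) to 0.0078 (without DM+SGLT2i 2), where its direction reversed. The members lower in DM-22 at an unadjusted p under 0.05 numbered 0 to 19, and 19 was reached without C 2 only.

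The replicate numbers of the diabetic libraries share only a number (correlation of deviations -0.041 over 2 pairs). With the replicate block, the count for DM+SGLT2i against DM-22 was 0, 1 member was higher at an unadjusted p under 0.05, and Kdm6a was at 0.29. With groups of 2 and 3 the exact permutation test cannot reach 0.05 between any 2 of the groups, which does not limit the limma fits.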
